A study of Homo sapiens with 6 samples.

Results

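The chromosome 19 zinc finger genes are the protein-coding genes of GENCODE version 44 that lie on chromosome 19 and whose symbol starts with ZNF and a digit. There are 249 of them among 20046 protein-coding genes, 1476 of which are on chromosome 19. ATAC-seq, which uses the Tn5 transposase to cut and tag accessible DNA, was used to map open chromatin at their promoters in neural progenitor cells (NPCs) made from H1, a human embryonic stem cell line. WT NPCs carried both histone demethylase genes. The dKO NPCs came from H1 cells edited to lose the catalytic domains of UTX (KDM6A) and JMJD3 (KDM6B), the enzymes that remove methyl groups from lysine 27 of histone H3, and the dKO+BAF53B NPCs were dKO cells that also received a lentivirus for BAF53B (ACTL6B), a subunit of the neuronal BAF chromatin remodelling complex. The edited cells were selected as clones with puromycin, and how many clones these libraries hold is not given in the sources used here. The comparison asks which of these promoters were open without the demethylases and after BAF53B was added. Each group had 2 replicates, pooled by the authors into 1 peak list. A value is therefore a value of a pooled list with no replicate error, no difference between lists was tested, and the 95% Wilson intervals given with shares cover counting error only.

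Zinc finger proteins of the C2H2 class bind DNA through arrays of fingers. Most of those encoded on human chromosome 19 also carry a KRAB domain, which recruits TRIM28 and, through it, the methyltransferase SETDB1, which places H3K9me3 and silences chromatin. Many of them bind transposable elements, and the genes arose by tandem duplication, so that neighbours often have similar promoters and similar finger exons. A KRAB-box pattern was found in the coding sequence of at least 1 annotated transcript of 196 of the 249 members, with a median of 12 C2H2 fingers over all members. The 3 readthrough genes, ZNF559-ZNF177, ZNF625-ZNF20 and ZNF816-ZNF321P, met the rule and were kept as members.

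A promoter was the window of 3 kb on each side of the annotated transcription start site (TSS), and a gene was counted in a list when a peak overlapped it. The 300 bases from 250 before to 50 after the TSS are shown in the direction of transcription for 5 members that appeared in the lists in different ways. ZNF91 stood in all 3 lists with the highest WT fold, and ZNF527 had the largest dKO to WT ratio. ZNF587 led the members found in dKO alone, ZNF600 stood in WT and dKO, and ZNF536 in no list. Sequences are from hg38, and capitals mark exact matches, on either strand, to the short motifs of 11 factors or elements, which may overlap. The SP/KLF motif was searched as GGGCGG, the NFY motif as CCAAT and the ETS motif as CCGGAAG. For CREB the letters were TGACGTCA, for NRF1 they were GCATGCGC and for YY1 they were AAGATGGCG. The E-box was searched as CACGTG, the motif of ZNF143 as ACTACAATT and that of BANP as CTCGCGAG. For AP-1 the letters were TGAGTCA, which read TGACTCA on the other strand, and the TATA box was searched as TATAAA.
ZNF91 (chr19:23395422-23395721, minus strand): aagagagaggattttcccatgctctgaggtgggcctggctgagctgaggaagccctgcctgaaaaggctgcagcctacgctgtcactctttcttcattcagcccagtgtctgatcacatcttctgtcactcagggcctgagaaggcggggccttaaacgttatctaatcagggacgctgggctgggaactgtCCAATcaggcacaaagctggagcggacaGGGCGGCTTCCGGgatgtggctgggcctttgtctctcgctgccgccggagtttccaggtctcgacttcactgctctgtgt
ZNF527 (chr19:37370811-37371110, plus strand): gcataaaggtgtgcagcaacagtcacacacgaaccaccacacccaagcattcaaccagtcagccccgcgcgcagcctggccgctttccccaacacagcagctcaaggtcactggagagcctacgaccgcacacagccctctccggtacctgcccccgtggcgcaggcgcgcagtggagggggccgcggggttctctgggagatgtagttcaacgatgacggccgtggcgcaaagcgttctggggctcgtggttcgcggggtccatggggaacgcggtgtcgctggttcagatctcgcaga
ZNF587 (chr19:57849609-57849908, plus strand): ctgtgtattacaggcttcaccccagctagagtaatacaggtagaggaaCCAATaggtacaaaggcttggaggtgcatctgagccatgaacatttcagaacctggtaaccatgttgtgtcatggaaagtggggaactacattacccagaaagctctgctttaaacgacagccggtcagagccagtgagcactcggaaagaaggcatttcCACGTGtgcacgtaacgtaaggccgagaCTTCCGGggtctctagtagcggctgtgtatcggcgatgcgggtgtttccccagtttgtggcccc
ZNF600 (chr19:52786758-52787057, minus strand): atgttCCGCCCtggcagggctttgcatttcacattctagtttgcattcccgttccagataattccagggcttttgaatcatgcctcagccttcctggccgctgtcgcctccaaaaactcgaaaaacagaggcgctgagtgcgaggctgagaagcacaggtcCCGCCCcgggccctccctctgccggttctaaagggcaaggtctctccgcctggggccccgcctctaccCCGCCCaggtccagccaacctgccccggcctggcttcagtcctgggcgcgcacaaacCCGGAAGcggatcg
ZNF536 (chr19:30224641-30224940, plus strand): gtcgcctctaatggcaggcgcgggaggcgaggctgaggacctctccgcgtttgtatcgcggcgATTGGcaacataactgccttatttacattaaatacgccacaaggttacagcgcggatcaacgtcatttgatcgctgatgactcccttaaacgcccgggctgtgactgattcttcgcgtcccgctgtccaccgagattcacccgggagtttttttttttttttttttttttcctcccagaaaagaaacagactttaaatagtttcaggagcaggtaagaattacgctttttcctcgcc

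The ETS and NFY letters were more frequent in these windows than in the other promoters of chromosome 19. The ETS letters occurred in 102 of 249 members (41.0%, 35.0 to 47.2%), in 13.0% (11 to 15%) of the other chromosome 19 protein-coding genes, in 25.6% (20.7 to 31.1%) of the 266 ZNF genes of other chromosomes and in 11.9% of all protein-coding promoters. The NFY letters occurred in 53.0% (46.8 to 59.1%) of members, 36.8% of the other chromosome 19 genes and 36.0% of all promoters. Shares of the SP/KLF letters were close, at 61.0% of members, 59.4% of the other chromosome 19 genes and 52.4% of all promoters, and the E-box was less frequent in members (3.6%, 1.9 to 6.7%) than in the other chromosome 19 genes (9.1%, 7.6 to 10.9%). In the ZNF genes of other chromosomes the NFY letters occurred in 41.0% (35.2 to 47.0%) and the E-box in 4.9% (2.9 to 8.2%), and both intervals overlap those of the members. The remaining 7 motifs were each found in 0.80% to 7.2% of members, and in all promoters their shares were 2.3% for CREB, 3.8% for NRF1, 1.9% for YY1, 0.39% for ZNF143, 1.2% for BANP, 4.0% for AP-1 and 10.8% for the TATA box. A match is a string of letters and says nothing of whether a factor was bound.

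The ETS letters lay close to the annotated start in members. The first base of the match nearest to the TSS was at a median of −6 bp (quartiles −21 and 10.8 bp) in members and at −33 bp (−116 and −13.5 bp) in the other chromosome 19 genes that had a match. By gene cluster they were found in 25 of 43 members of C10, 23 of 37 of C4 and 24 of 40 of C8, and in 3 of 26 of C3 and 0 of 5 of C1 (runs of neighbouring members, numbered along the chromosome). Members with the letters had a WT peak in 55 of 102 cases (53.9%) and members without them in 74 of 147 (50.3%), whereas among the other chromosome 19 genes the shares were 60% (52.3 to 67.3%) and 32.2% (29.5 to 35.1%). In dKO the shares of members with and without the letters were 83.3% and 83.7%. Within 100 bp of the summit of the strongest dKO peak the ETS letters occurred at 34.0% (27.8 to 40.9%) of 197 distinct member peaks and at 14.6% (11.9 to 17.8%) of 548 promoter peaks of other chromosome 19 genes.

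A longer stretch was shared mostly within 1 cluster. The 2 strings of 12 bases found in the largest number of member promoters, CTGTCACTCAGG and GTCCAATCAGGC in the direction of transcription, each occurred in 22 members (8.84%), against 0.326% and 0% of the other chromosome 19 genes and 0.170% and 0.155% of all promoters. ZNF genes of other chromosomes held them too, in 5 (1.88%) and 7 (2.63%) of 266 promoters. They were sought after the promoters above had been seen. Of the 37 members of C4, the cluster that holds ZNF91, 18 had the first string, 21 the second and 13 both, and the only other chromosome 19 cluster with either was C3, with 5 of 26 members. From the first string on, 100 bases are shown for the 3 C4 members with both strings and the highest WT fold and for 3 C4 members with both strings and no peak in any list, with the strings in capitals.
ZNF91 (chr19:23395500-23395599, minus strand): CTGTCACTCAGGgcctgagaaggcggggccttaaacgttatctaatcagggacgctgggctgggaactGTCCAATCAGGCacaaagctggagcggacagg
ZNF737 (chr19:20565809-20565908, minus strand): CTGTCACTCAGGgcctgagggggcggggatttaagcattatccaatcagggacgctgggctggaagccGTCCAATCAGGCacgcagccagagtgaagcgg
ZNF714 (chr19:21082075-21082174, plus strand): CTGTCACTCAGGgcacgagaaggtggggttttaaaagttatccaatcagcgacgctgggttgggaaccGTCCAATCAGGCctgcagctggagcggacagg
ZNF208 (chr19:22010966-22011065, minus strand): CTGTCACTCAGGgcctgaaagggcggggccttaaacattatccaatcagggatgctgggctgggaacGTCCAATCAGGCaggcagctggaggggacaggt
ZNF492 (chr19:22634194-22634293, plus strand): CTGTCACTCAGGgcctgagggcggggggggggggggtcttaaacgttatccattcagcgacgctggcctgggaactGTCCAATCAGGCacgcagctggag
ZNF676 (chr19:22215795-22215894, minus strand): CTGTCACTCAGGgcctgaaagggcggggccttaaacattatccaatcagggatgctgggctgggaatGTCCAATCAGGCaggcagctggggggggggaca

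These promoters shared both strings and differed in their calls. The strings were 68 bp apart in ZNF91, ZNF737 and ZNF714, 67 bp in ZNF208 and ZNF676 and 76 bp in ZNF492. ZNF714 had 44 fragments at its summit in WT, 77 in dKO and 57 in dKO+BAF53B, while ZNF208, ZNF492 and ZNF676 were in no list. Of the 13 C4 members with both strings 7 had a WT peak and 9 a dKO peak, and of the 11 with neither 6 and 8 had one. The 32-base strings within 500 bp of the TSS were called repeated when they occur more than once in hg38. Their share was 9.4% at ZNF714, 12.8% at ZNF91 and 14.7% at ZNF737, and 23.4% at ZNF492, 29.4% at ZNF676 and 34.0% at ZNF208. This split belongs to the promoters picked for display and did not hold across C4. Of other C4 members, ZNF100 (6.2%) and ZNF85 (8.8%) were in no list, while ZNF253 and ZNF254 (26.0% each) had a peak in every list. How the authors treated reads that align to several places is not given in the sources used here, and its part in these calls was not tested.

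Promoters of the chromosome 19 zinc finger genes were listed as open more often than other promoters in every group at the deposited threshold. A WT peak was found at 129 of 249 members (51.8%, 45.6 to 57.9%), where the background was 35.9% of the 1227 other protein-coding genes of chromosome 19 and 28.2% of all protein-coding genes. In dKO the count was 208 (83.5%, 78.4 to 87.6%), against 58.9% and 56.4%. With BAF53B it was 187 (75.1%, 69.4 to 80.1%), against 48% and 45%. The interval of the members and that of the other chromosome 19 genes did not overlap in any of the 3 lists. With peaks of −log10 q of at least 10 only, the WT shares were 25.7% and 22.9%, while the dKO shares were 72.7% and 49.3% and the dKO+BAF53B shares 51.4% and 35.9%. The 266 ZNF genes of other chromosomes lay between, with 41.0% (35.2 to 47.0%) in WT, 77.4% (72.1 to 82.1%) in dKO and 62.8% (56.8 to 68.4%) with BAF53B. Among the other chromosome 19 genes, 15 have symbols that start with ZFP, ZSCAN, ZIM, ZIK or ZKSCAN and a digit. Of these, 26.7% (10.9 to 52.0%) had a WT peak, 53.3% (30.1 to 75.2%) a dKO peak and 46.7% (24.8 to 69.9%) a dKO+BAF53B peak. Their interval overlaps that of the members in WT and dKO+BAF53B and not in dKO.

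**Figure D1:**
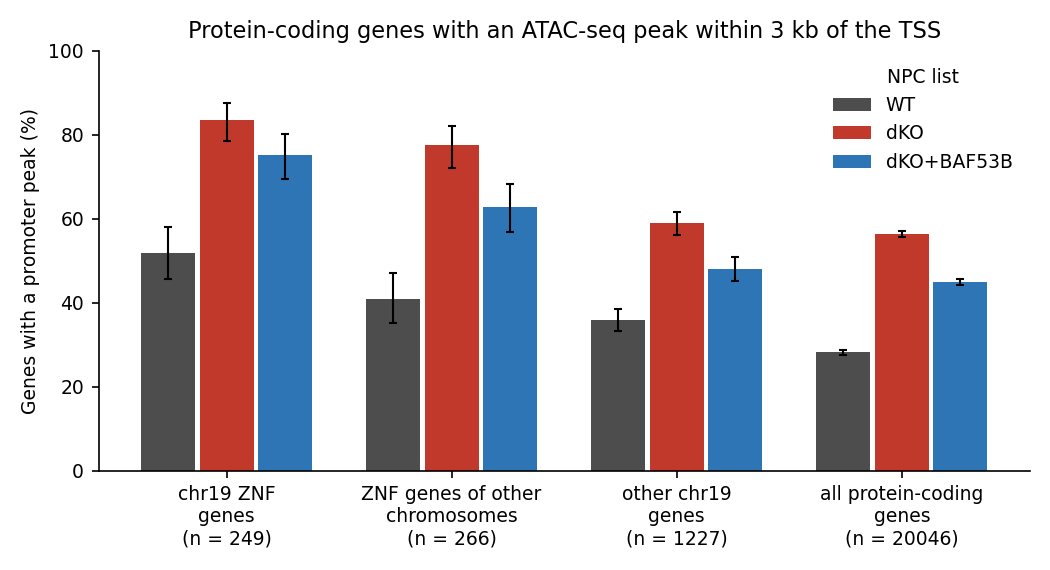
Share of protein-coding genes with an ATAC-seq peak within 3 kb of the TSS (y axis, percent) in the WT, dKO and dKO+BAF53B lists, for 4 sets of genes named with their number on the x axis. Bars are shares and error bars are 95% Wilson intervals for counting error, and the chromosome 19 ZNF genes have the highest bar in each list (51.8%, 83.5% and 75.1%).

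Nearly all WT peaks at these promoters had a counterpart in the other lists. A peak was present in all 3 lists at 128 members, in dKO and dKO+BAF53B but not in WT at 58, in dKO alone at 21, in WT and dKO at 1 (ZNF600), in dKO+BAF53B alone at 1 (ZNF610) and in no list at 40. Of all protein-coding genes, 26.8% were in all 3 lists, 16.2% in dKO and dKO+BAF53B only, 12.4% in dKO alone and 41.3% in none. The member shares were 51.4%, 23.3%, 8.43% and 16.1%. The patterns of ZNF600 and ZNF610 were found at 1.06% and 1.88% of all genes. No member had a peak in WT and none in dKO, for which the background was 0.407% of the other chromosome 19 genes (5 genes) and 0.399% of all genes (80 genes), so that a count of 0 among 249 members does not set them apart. A dKO peak without a WT peak was found at 79 members (31.7%, 26.3 to 37.7%), against 23.5% of the other chromosome 19 genes and 28.6% of all genes. Taken over genes with no WT peak only, a dKO peak was called at 79 of 120 members (65.8%, 57.0 to 73.7%) and at 36.6% (33.3 to 40%) of the other chromosome 19 genes, while the ZNF genes of other chromosomes had 63.1% (55.3 to 70.2%). Of the 79 members, 58 also had a dKO+BAF53B peak (73.4%, 62.8 to 81.9%). Among genes with a dKO and no WT peak the share was 52.1% (46.3 to 57.8%) in the other chromosome 19 genes. It was 67.7% (58.0 to 76.1%) in the ZNF genes of other chromosomes and 56.6% in all genes. The intervals of the members and of the ZNF genes of other chromosomes overlap.

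The length of the lists bears on these counts. The lists held 7880 peaks in WT, 25439 in dKO and 16948 in dKO+BAF53B at similar genome backgrounds of 6.33, 6.81 and 6.78 fragments, and 607, 1588 and 985 of the peaks were on chromosome 19. When each list was shortened to its 7880 peaks of highest −log10 q, the member counts were 129, 152 and 139, and the other chromosome 19 genes had 35.9%, 41.7% and 38.2%. A dKO peak without a WT peak was then found at 34 members (13.7%, against 9.05% of the other chromosome 19 genes). A WT peak without a dKO peak was found at 11 members (4.42%). The share of other genes with that pattern at this list length is not given here, so the count of 11 does not set the members apart. A missing peak shows only that the signal did not pass the threshold of the list.

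Members present in all 3 lists had the tallest dKO summits by median. At the 128 members in all 3 lists, the strongest promoter peak had a summit pileup, the count of fragments over its highest base, of 25 to 66 in WT (median 37), 37 to 165 in dKO (median 75) and 28 to 111 in dKO+BAF53B (median 49.5), so the ranges of the lists overlapped. At the 58 members found in dKO and dKO+BAF53B the dKO pileup was 28 to 104, with a median of 46.5, and the dKO+BAF53B pileup 28 to 63, with a median of 37. At the 21 members found in dKO alone it was 28 to 63 (median 38). The smallest pileup of any listed peak was 25, 25 and 26 in the 3 lists. The sets are defined by the lists in which a peak passed the threshold, so their order in dKO can follow from the split. Values of other genes split in this way are not given here, so the order does not set the members apart.

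**Figure D2:**
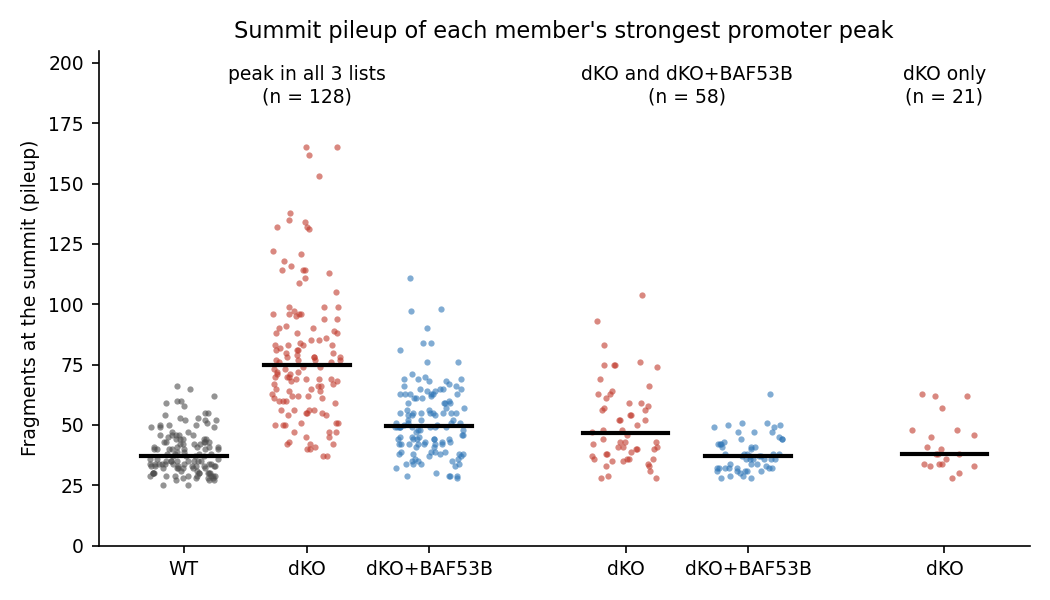
Fragments at the summit of the strongest promoter peak (y axis) of each chromosome 19 ZNF gene, by list on the x axis, for the 128 members in all 3 lists, the 58 in dKO and dKO+BAF53B and the 21 in dKO alone. Points are members and black lines are medians, which are 37, 75 and 49.5 in the first set, 46.5 and 37 in the second and 38 in the third.

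To compare heights between lists, the pileup was divided by the genome background of its list. On this scale the dKO peak was higher than the WT peak at 126 of 129 members with both (97.7%). It was higher at 99.8% of the other chromosome 19 genes with both and at 96.3% of all genes with both. The median log2 ratio was 0.89 (1.86-fold) in members. The median was 1.06 in 435 other chromosome 19 genes, 0.68 in 107 ZNF genes of other chromosomes and 0.77 in all 5576 genes with both peaks. The order of the first 2 sets turned with the deposited fold over local background, where the members had 0.59 and the other chromosome 19 genes 0.54. At the promoters in all 3 lists the local background was 1.59 times the genome background at members and 2.37 times at the other chromosome 19 genes in dKO. The dKO+BAF53B peak was lower than the dKO peak at most members. It was higher at 19 of 186 members (10.2%), at 2.44% of the other chromosome 19 genes and at 13.7% of all genes. The median log2 ratio was −0.48 over 186 members, against −0.69 over 573 other chromosome 19 genes and −0.44 over all genes. With the deposited fold the order turned here too, with −0.33 in members, −0.26 in the other chromosome 19 genes and −0.26 over all genes. Against WT the dKO+BAF53B peak was higher at 105 of 128 members (82.0%), at 86.1% of the other chromosome 19 genes and at 80.7% of all genes. The median was 0.30 in members, and the other chromosome 19 genes had 0.34. With the deposited fold these medians were 0.21 and 0.20. These ratios share their lists and are not independent of each other.

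**Figure D3:**
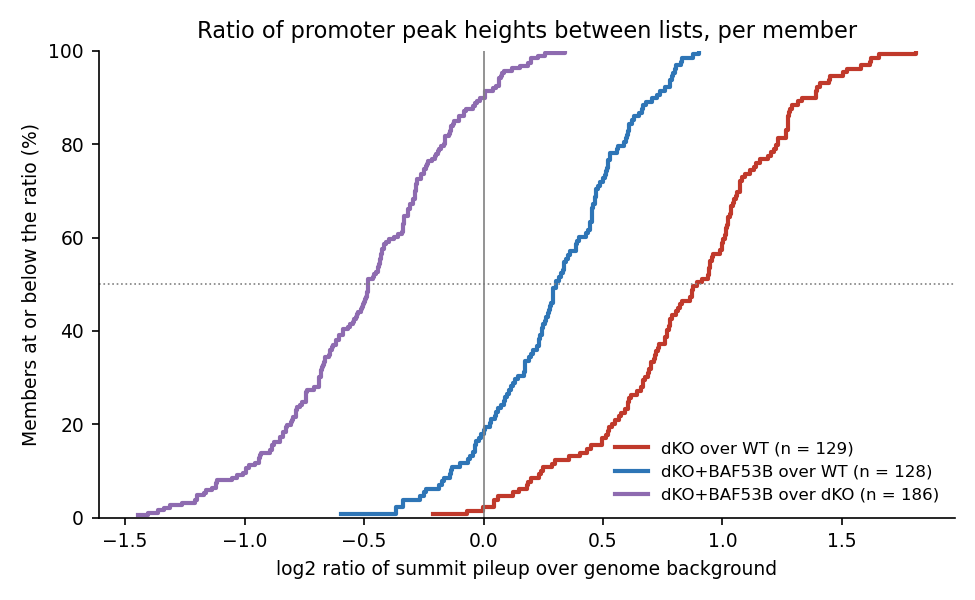
Cumulative share of members (y axis, percent) at or below a log2 ratio of scaled summit pileup (x axis, pileup over the genome background of the list), for dKO over WT, dKO+BAF53B over WT and dKO+BAF53B over dKO. The curves cross the dotted line at 50% at 0.89, 0.30 and −0.48, and they hold 129, 128 and 186 members. By these medians the dKO+BAF53B heights lay between those of WT and dKO, but not at each member. The dKO+BAF53B peak was higher than the WT peak at 105 of 128 members (82.0%) and higher than the dKO peak at 19 of 186 (10.2%). Over all genes these shares were 80.7% and 13.7%.

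The highest WT folds among members in all 3 lists belonged to ZNF91, ZNF584, ZNF737, ZNF57 and ZNF324B. ZNF91 (ENSG00000167232.14, chr19:23304991-23395471, minus strand), a repressor of SVA retrotransposons, had 59 fragments at its summit in WT (7.24-fold over local background), 99 in dKO (9.78-fold) and 49 in dKO+BAF53B (5.33-fold). Its summits lay 93, 77 and 58 bp upstream of the TSS, between the 2 shared strings printed above in WT and dKO and within the second in dKO+BAF53B. ZNF584 (chr19:58401504-58431736) had 65, 134 and 97 fragments, ZNF737 (chr19:20535825-20565809) had 49, 85 and 67, ZNF57 (chr19:2900928-2918473) had 52, 83 and 59, and ZNF324B (chr19:58451611-58457833) had 58, 89 and 55 in WT, dKO and dKO+BAF53B. All 5 were highest in dKO. In ZNF91 and ZNF324B dKO+BAF53B was the lowest list, and in the other 3 WT was.

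The largest dKO to WT ratios were at ZNF527, ZNF433, ZNF566, ZNF564 and ZNF132. ZNF527 (ENSG00000189164.15, chr19:37371061-37393066, plus strand) had 35 fragments in WT, 132 in dKO and 51 in dKO+BAF53B, a log2 ratio of dKO over WT of 1.81 (3.51-fold), and its dKO summit was 3 bp upstream of the TSS. ZNF564 (chr19:12525373-12551542) had 49, 162 and 90 fragments, with the highest dKO fold of these 5 genes (11.6). ZNF433 had 28, 95 and 55, ZNF566 had 29, 96 and 35, and ZNF132 had 42, 135 and 76, with dKO to WT ratios of 3.15, 3.08 and 2.99. Summits were within 200 bp of the TSS in each list at all of these except ZNF566, where they lay at least 214 bp downstream.

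At the other end, 3 members had a scaled dKO peak no higher than the WT peak. ZNF708 had 43 fragments in WT, 40 in dKO and 42 in dKO+BAF53B (log2 ratio of dKO over WT −0.21), ZNF561 had 41, 42 and 34 (−0.07), and ZNF600 had 27 in WT and 29 in dKO (−0.0025) and no dKO+BAF53B peak. ZNF221, with 46, 51 and 48 fragments, and ZNF614, with 46, 51 and 41, followed, both at 0.04. The dKO fold of ZNF708 over its local background, 5.25, was above its WT fold of 4.84. The share of repeated 32-base strings was 24.5% at ZNF708, 11.6% at ZNF561, 26.6% at ZNF600 and 0% at ZNF221 and ZNF614, and its part in these ratios was not tested.

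Among members found in dKO and dKO+BAF53B and not in WT, ZNF223 (ENSG00000178386.13, chr19:44051367-44067999, plus strand) had the highest dKO fold. It had 93 fragments in dKO (8.65-fold) and 40 in dKO+BAF53B (4.15-fold), with summits 569 and 692 bp downstream of the annotated TSS. ZNF571 had 76 fragments in dKO and 37 in dKO+BAF53B, ZNF69 had 83 and 38, ZNF304 had 74 and 44, and ZNF461 had 69 and 38. In each of these 5 genes the dKO value was the higher one, with log2 ratios of dKO+BAF53B over dKO of −1.21 to −0.74. They were picked for the highest dKO fold of this pattern, so that order follows in part from the choice. Over all 58 members of the pattern the median pileup was 46.5 in dKO and 37 in dKO+BAF53B.

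The 5 strongest peaks found in dKO alone lay at 6 members. ZNF587 (ENSG00000198466.12, chr19:57849859-57865117, plus strand) had 46 fragments (6.02-fold) with the summit 90 bp upstream of the TSS, where 40.9% of the surrounding 32-base strings were repeated. ZNF780B had 45 fragments (5.89-fold), ZNF850 had 63 (5.05-fold) and ZNF565 had 38 (4.64-fold). ZNF568 (chr19:36916316-37005037) and ZNF829 (chr19:36888124-36916291) shared 1 peak of 62 fragments (5.60-fold), since they are transcribed in opposite directions from neighbouring starts. Of these 6 genes, 4 belong to cluster C6.

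ZNF610 (chr19:52336243-52367778) was the only member found in dKO+BAF53B alone, with 30 fragments (3.42-fold) and a summit 853 bp downstream of the TSS, in intron 1.

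Most peaks at members were single and lay near the start. The summit of the strongest peak lay within 200 bp of the TSS at 82.9% of members with a WT peak, 78.8% with a dKO peak and 79.1% with a dKO+BAF53B peak, against 53.4%, 50.5% and 52.1% of the other chromosome 19 genes, 77.1%, 67.5% and 74.9% of the ZNF genes of other chromosomes and 67.3%, 62.2% and 63.8% of all genes. The intervals of the members and of the ZNF genes of other chromosomes overlap in each list. The interval for dKO was 72.8 to 83.8% in members and 46.8 to 54.1% in the others. At least 2 peaks in the window were found at 5.77% (3.33 to 9.81%) of members with a dKO peak and at 17.0% (14.4 to 19.9%) of the other chromosome 19 genes with one, and at 5.83% (3.36 to 9.90%) of the ZNF genes of other chromosomes with one. Relative to the canonical transcript, which often starts downstream of the first annotated TSS, the dKO summit was upstream at 172 of 208 members, in the untranslated part of exon 1 at 23, in intron 1 at 12 and elsewhere at 1. No member had a summit in its last exon outside the promoter windows in any list, the exon that holds the fingers in most of these genes. The share of other genes with such a summit is not given here, so this count does not set the members apart. Distinct promoter peaks of members numbered 127, 207 and 185, which is 20.9%, 13.0% and 18.8% of the chromosome 19 peaks of the lists, and 5, 13 and 10 of them fell in the windows of at least 2 members.

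The share of members with a peak differed most from that of other chromosome 19 genes at promoters of low CpG content. CpG content was taken as the observed over expected number of CpG dinucleotides in the 300 bases, with a median of 0.72 in members and 0.65 in the other chromosome 19 genes. At values from 0.25 to 0.5, 23 of 44 members had a WT peak (52.3%, 37.9 to 66.2%), against 28 of 261 other chromosome 19 genes (10.7%, 7.5 to 15.1%), and in dKO the shares were 70.5% (55.8 to 81.8%) and 29.9% (24.7 to 35.7%). At 0.75 and over the WT shares were 59.8% (50.6 to 68.4%) and 58.9% (54.5 to 63.1%) and the dKO shares 91.1% (84.3 to 95.1%) and 84.1% (80.6 to 87.0%). ZNF91 (0.45) and ZNF737 (0.37) are members of low CpG content with a peak in all 3 lists, and ZNF536, with the highest ratio of the members without a peak, had none in any list.

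**Figure D4:**
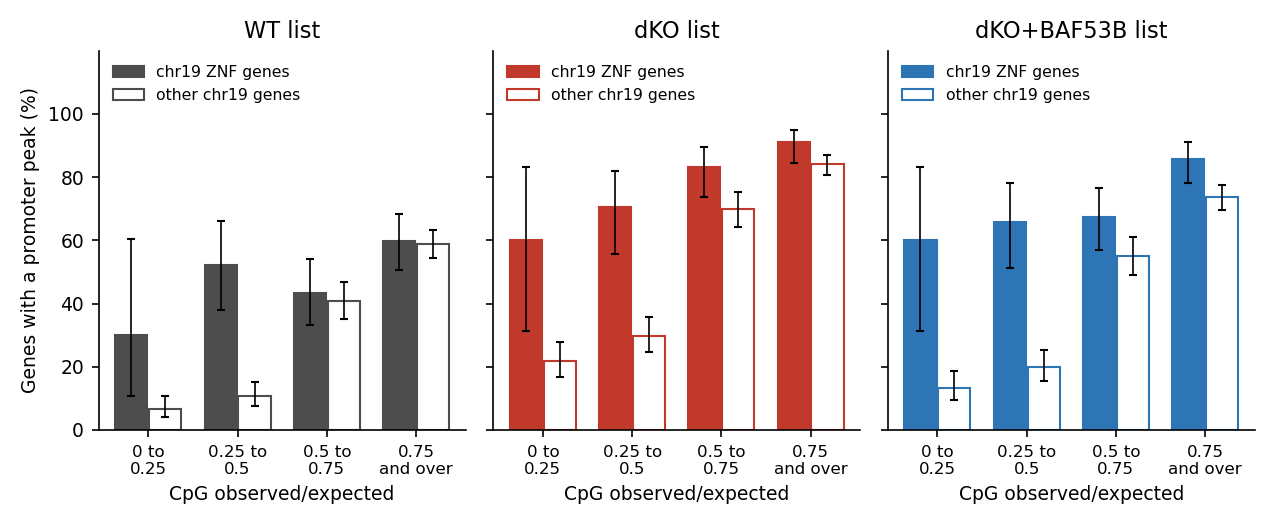
Share of genes with a promoter peak (y axis, percent) by the CpG observed/expected ratio of the 300 bases around the TSS (x axis), 1 panel per list. Filled bars are the chromosome 19 ZNF genes, open bars the other chromosome 19 protein-coding genes, and error bars 95% Wilson intervals, which in the bin from 0.25 to 0.5 do not overlap between the sets in any panel.

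Features of the encoded proteins went with small differences only. Members with the KRAB-box pattern had a peak in 52.0% (WT), 82.1% (dKO) and 73.5% (dKO+BAF53B) of 196 cases, and the 52 members without it in 50%, 88.5% and 80.8%, with overlapping intervals in each list. The pattern misses diverged KRAB boxes, so members without it are not all without the domain. Sequence uniqueness went with a larger difference in dKO and dKO+BAF53B. The 186 members with under 10% repeated 32-base strings had a peak in 54.3% (47.1 to 61.3%), 88.2% (82.7 to 92.1%) and 80.1% (73.8 to 85.2%) of cases, and the 63 with at least 10% in 44.4% (32.8 to 56.7%), 69.8% (57.6 to 79.8%) and 60.3% (48.0 to 71.5%). The intervals overlap in WT only.

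The members fell into clusters along the chromosome. Neighbouring members with starts no more than 500 kb apart were joined, and groups of at least 5 were called clusters, numbered C1 to C10 from the short arm to the end of the long arm. They hold 235 members, and the other 14 are dispersed. In the clusters also lie 108 protein-coding genes that are not members, of which 32.4% (24.3 to 41.7%) had a WT peak, 50% (40.7 to 59.3%) a dKO peak and 42.6% (33.7 to 52.0%) a dKO+BAF53B peak, against 53.6%, 84.3% and 76.2% of the members beside them.

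**Figure D5:**
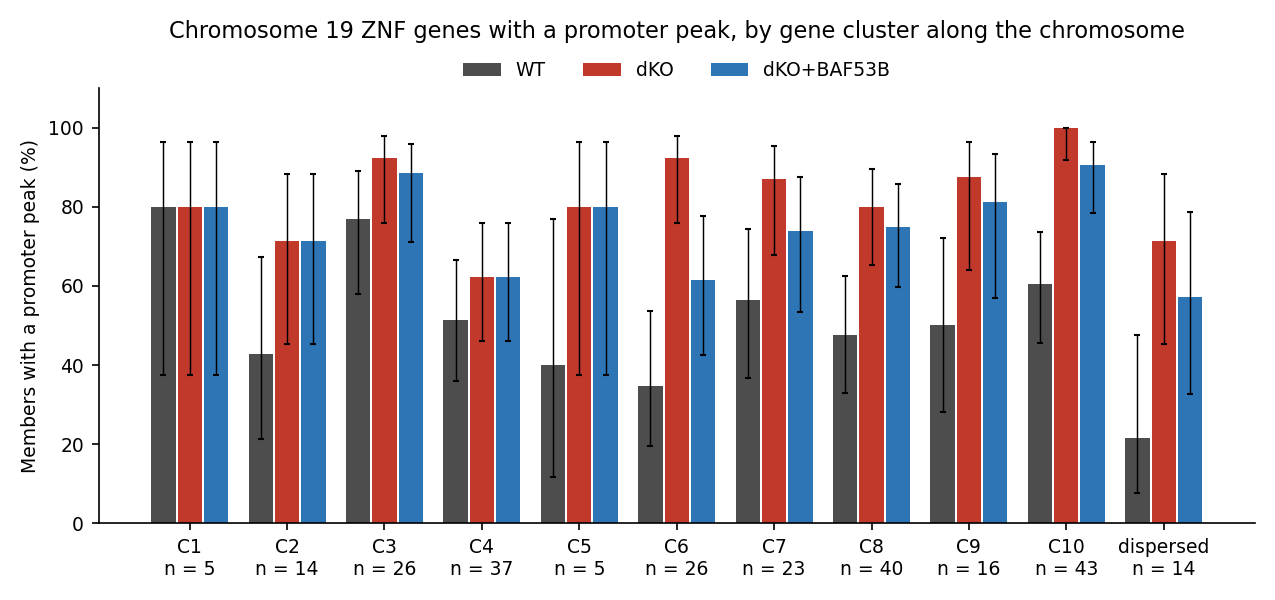
Share of members with a promoter peak (y axis, percent) in the WT, dKO and dKO+BAF53B lists for each cluster in order along chromosome 19 and for the dispersed members (x axis, with the number of members). Bars are shares with 95% Wilson intervals, and C10 reaches 100% in dKO, while C4 stays at 62.2%.

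C10, at the end of the long arm (ZNF264 to ZNF446, chr19:57191500-58474017), held 43 members, and all of them had a dKO peak (interval from 91.8%). In WT 26 had one and in dKO+BAF53B 39 did, and the 4 found in dKO alone were ZNF154, ZNF587, ZNF135 and ZNF544. C3 (ZNF653 to ZNF490, chr19:11505839-12640098) had the highest WT share of the larger clusters, with 20 of 26 members in WT, 24 in dKO and 23 in dKO+BAF53B.

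C6 (ZNF146 to ZNF573, chr19:36214602-37817300) changed most between the lists. A peak was found at 9 of its 26 members in WT (34.6%), 24 in dKO (92.3%, 75.9 to 97.9%) and 16 in dKO+BAF53B. Its 15 members with a dKO and no WT peak included 8 of the 21 members found in dKO alone, which were ZNF565, ZNF382, ZNF529, ZNF850, ZNF829, ZNF568, ZNF875 and ZNF573. They are not all separate observations, since 1 dKO peak each stood for ZNF382 with ZNF529 and for ZNF568 with ZNF829. The median share of repeated 32-base strings in C6 was 0%.

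C4 (ZNF101 to ZNF254, chr19:19668796-24033405) spanned 4.36 Mb and differed least by share between WT and dKO among the clusters with more than 5 members. Of its 37 members 19 had a peak in WT and 23 in dKO and in dKO+BAF53B, and 14 had none, namely ZNF66, ZNF85, ZNF430, ZNF429, ZNF100, ZNF208, ZNF257, ZNF676, ZNF729, ZNF98, ZNF492, ZNF99, ZNF723 and ZNF728. The median log2 ratio of dKO over WT was 0.69. C4 had the lowest median CpG ratio of the clusters (0.46) and the highest median share of repeated 32-base strings (13.8%), and the part of either in these counts was not tested.

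C8 (ZNF175 to ZNF331, chr19:51571283-53519527) had peaks at 19 of 40 members in WT, 32 in dKO and 30 in dKO+BAF53B, and it holds both ZNF600 and ZNF610. All of its members had the KRAB-box pattern. Its members with no peak were ZNF577, ZNF836, ZNF528, ZNF534, ZNF578, ZNF701 and ZNF765. In C7 (ZNF575 to ZNF180, chr19:43525497-44500524) 13 of 23 members had a WT peak, 20 a dKO peak and 17 a dKO+BAF53B peak. ZNF155, ZNF112 and ZNF229 had none, and ZNF222, ZNF227 and ZNF233 were found in dKO alone.

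The smaller clusters moved in the same order or not at all. C9 (ZNF628 to ZNF835, chr19:55476617-56671783) had 8, 14 and 13 of 16 members with a peak in WT, dKO and dKO+BAF53B, and ZNF444 and ZNF583 had none. C2 (ZNF414 to ZNF846, chr19:8514167-9793180) had 6, 10 and 10 of 14, and ZNF558, ZNF177, ZNF560 and ZNF562 had none. C5 (ZNF302 to ZNF792, chr19:34677639-34964229) had 2, 4 and 4 of 5, without ZNF792, and C1 (ZNF554 to ZNF77, chr19:2819868-2944971) had 4 of 5 in each list, without ZNF556. Of the 14 dispersed members 3, 10 and 8 had a peak, and ZNF536, ZNF546, ZNF574 and ZNF541 had none. The last members found in dKO alone were ZNF439 in C3, ZNF350 and ZNF665 in C8, ZNF71 in C9 and the dispersed ZNF358 and ZNF780B, and ZNF709 and ZNF490 in C3 and ZNF420 and ZNF540 in C6 complete the members with no peak.

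Members reported to bind transposable elements were taken as a list of 9. Of these, 3 had a WT peak, 7 a dKO peak and 6 a dKO+BAF53B peak, shares that with 9 genes cannot be set apart from those of all members. ZNF91 is described above. ZNF93, which binds LINE-1 elements, had 43, 55 and 45 fragments in WT, dKO and dKO+BAF53B. ZNF417, a close paralogue of ZNF587, had 29, 82 and 42, with 42.8% repeated 32-base strings. ZNF611 had 36 in dKO and 36 in dKO+BAF53B, ZNF649 had 38 and 38, and ZNF808 had 44 and 31, all with no WT peak. ZNF534 and ZNF765 were in no list.

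Among 6 members of other known roles, 3 had a WT peak, 5 a dKO peak and 3 a dKO+BAF53B peak. ZNF274, which binds the finger exons of other ZNF genes and recruits SETDB1 there, had 30 fragments in WT, 72 in dKO and 39 in dKO+BAF53B. The imprinted gene ZNF331 had 46, 90 and 39, with summits 1310 to 1468 bp downstream of the annotated start, and ZNF224 had 32, 70 and 61. ZNF568 (62 fragments) and ZNF382 (34 fragments) were found in dKO alone. ZNF536, which in mouse cells restrains neuronal differentiation, had no peak in any list.

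The genes of the partners of the KRAB domain were counted in the same way. A peak was found at the promoters of 10 of 24 cofactor genes in WT, of 19 in dKO and of 16 in dKO+BAF53B, where the shares over all genes were 28.2%, 56.4% and 45%. No test of the difference was made. TRIM28, itself a gene of chromosome 19, had 54, 193 and 80 fragments, more in dKO than any member. SETDB1 had 32, 76 and 53, and the HP1 genes CBX1, CBX3 and CBX5 had 29, 46 and 60 in WT and 78, 101 and 140 in dKO. ATF7IP2, EHMT2, UHRF1, ATRX and DAXX had none in any list.

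Marker promoters give a limited view of the labelled cell type. The WT list held 2 of 10 neural progenitor promoters (VIM and POU3F2), the dKO list 7 and the dKO+BAF53B list 5, where the shares over all genes were 28.2%, 56.4% and 45%, while PAX6, NES and HES5 had none in any list. Of 5 pluripotency genes 0, 2 and 1 had one, of 6 neuronal genes 1, 3 and 2, of 5 neural crest genes 0, 1 and 1, and of 5 mesenchymal genes 0, 2 and 2. POU5F1 and NANOG were in no list. The part of the mix of cells in the member counts was not tested.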

How the data were processed

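Per the study's methods and processing notes, the authors trimmed ATAC-seq reads with cutadapt 1.13, aligned them to hg38 with Bowtie2 2.2.5, removed duplicates with SAMtools 1.3.1 and Picard 1.90 and called peaks with MACS2. The peak calling options, the Tn5 shift and the treatment of reads with several alignments are not given in the sources used here. The 2 replicates of a group shared 1 deposited list. Each deposited fold is the ratio of the summit pileup to the local background after MACS2 adds a pseudocount of 1. The deposited −log10 p-value comes from a Poisson model. The deposited −log10 q score, which is 5 or higher for every listed peak, comes from its correction for multiple testing by MACS2.

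The whole pileup and its background were solved from the fold and −log10 p, for 100% of peaks at a tolerance of 0.001, and the lowest background stood for depth. A promoter was TSS ± 3 kb of a GENCODE version 44 protein-coding gene with an overlap of at least 1 bp, and the peak of highest fold stood for a gene. Clusters joined members whose starts lay within 500 kb, with at least 5 members. Motifs were exact matches on both strands. The 12-base strings left out those with 8 or more of 1 base. Repeats were counted as 32-base strings at 2 or more places of hg38. KRAB and finger patterns were read from GENCODE coding sequence. Named members were, by rule, the 5 highest by fold or by ratio in each pattern, the 5 lowest by ratio, and 2 lists of known members. Promoter sequences of some named members are not reported here. The C4 members shown by sequence were chosen after their values were seen. Members and lists were chosen with earlier results of these data known. Steps were tested on simulated data. Alternatives were a window of 1 kb, lists of equal length, a −log10 q threshold of 10, the summit inside the window, other transcript starts, members with no other start or few repeats, the deposited fold and the deposited −log10 p. Scripts ran in Python 3.11.15 with Biopython 1.88, numba 0.67.0, pandas 2.3.3, numpy 2.4.6, matplotlib 3.10.9 and scipy 1.17.1.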

Additional observations from a re-analysis of the deposited data

How the results depend on the processing

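No paired analysis was possible because a single list was made from the 2 replicates of a group, and leaving out a replicate was not possible for the same reason. A −log10 q of at least 10 left 64 members with a WT peak (25.7%, against 22.9% of the other chromosome 19 genes). At that threshold 117 members (47.0%, against 26.4% of the other chromosome 19 genes) had a dKO and no WT peak. At equal list length, 34 members (13.7%, against 9.05% of the other chromosome 19 genes) had a dKO and no WT peak. A WT and no dKO peak was found at 11 (4.42%), with no share of other genes beside it. The median log2 ratio of dKO over WT was 0.78 at a −log10 q of at least 10, 0.59 with the deposited fold and 1.35 with the deposited −log10 p. With the deposited −log10 p the ratio of dKO+BAF53B over WT was 0.56. The ratio of dKO+BAF53B over dKO was −0.33 with the fold and −0.67 with −log10 p. No alternative turned the direction of a ratio. The other alternatives, among them 1 added after the data were seen that leaves out the 3 readthrough genes, kept counts within 1.5 times and log2 ratios within 0.1. With pooled lists the depth limits which weak peaks are called, and the spread between replicates is unknown.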
